A study of Mus musculus with 6 samples.

Results

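Iron handling in adult skeletal muscle was followed through 10 genes for iron uptake, storage, export and sensing, which are Tfrc, Slc11a2, Steap3, Fth1, Ftl1, Slc40a1, Aco1, Ireb2, Hfe2 and Bmp6. They were the rows of the count tables whose gene symbol equals one of these names, 10 of 24421 genes, and all 10 were expressed highly enough to be tested. Gastrocnemius/plantaris (GP) muscle of male mice was profiled by RNA-Seq, with 3 libraries labelled Ctrl and 3 labelled cKO, each from its own mouse. Labelled Ctrl mice were Net39 fl/fl without Cre, and labelled cKO mice were HSACreERT2;Net39 fl/fl. The authors made the floxed allele in B6C3F1 zygotes, then bred it to another strain and to Cre mice. All mice profiled were 5 months of age and 3 months past tamoxifen, so the floxed alleles and the drug are shared by both groups. The human skeletal actin promoter drives the inducible Cre in muscle fibres, and the first exon of Net39, which encodes a nuclear envelope protein, lies between the loxP sites. Other cells of the muscle are part of the RNA, and in bulk tissue fewer cells of a type cannot be told apart from less RNA per cell.

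Net39, listed under its older symbol Ppapdc3, was read first. It had 5365, 4340 and 6080 counts where the label read cKO, against 310, 321 and 217 counts where it read Ctrl. The log2 fold change of labelled cKO over labelled Ctrl was 4.22 (standard error, SE, 0.17, adjusted p = 0.000161, edgeR's quasi-likelihood test). The gene meant to be deleted was therefore low in the libraries labelled Ctrl, against their label. Every direction below follows the labels as given, and if the labels were exchanged every direction would turn. Totals were 33860001 to 38201728 counts in labelled Ctrl and 39191239 to 48839910 in labelled cKO, ranges that do not overlap, and the libraries of a group differed by more than counting error (chi-square per degree of freedom 31.3 to 107). Values are given as counts per 1000000 counts (CPM) scaled by edgeR's TMM factors. Defining genes of skeletal muscle such as Acta1 and Ckm were present in every library. The 7 markers summed to 96270 to 127420 CPM in labelled Ctrl and 174130 to 224389 CPM in labelled cKO. Of them 5 passed as higher in labelled cKO at an adjusted p under 0.05 (71.4%, beside 12.6% of all genes). Leaving out a library gave 1 to 6. The fewest were without Ctrl 2, cKO 1 or cKO 3, where 5.34% to 6.2% of all genes passed as higher.

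Cells take up iron when transferrin, the iron carrier of blood, binds the transferrin receptor and is carried into endosomes, where iron is reduced by STEAP3 and moved to the cytosol by the transporter DMT1 (Slc11a2). Iron that is not used is stored in ferritin, a shell built of heavy (Fth1) and light (Ftl1) chains, or leaves through ferroportin (Slc40a1). When iron is scarce, the iron regulatory proteins IRP1 (Aco1) and IRP2 (Ireb2) bind a hairpin called the iron-responsive element. An element in the 5′ UTR, as in ferritin mRNA, then blocks translation, and elements in the 3′ UTR, as in Tfrc mRNA, keep the mRNA from decay. Muscle also uses iron for myoglobin and the respiratory chain, and expresses hemojuvelin (Hfe2), a BMP co-receptor that in the liver, with the ligand BMP6, sets the level of the iron hormone hepcidin.

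The hairpins are shown because they divide the genes into those regulated at translation and those regulated through mRNA stability, and mRNA counts do not read translation. UTRs of GENCODE M21 transcripts on GRCm38 (mm10) were searched on the mRNA strand for CNNNNNCAGTGNNNNNN, the bulged C, the first stem arm, the loop and the second arm, with pairing counted between the 5 bases on either side of the loop (G with T allowed). In the sequences, written with T for U from 5′ to 3′, capitals mark the 6-base loop.
Fth1 5′ UTR: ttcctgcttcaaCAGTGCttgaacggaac
Ftl1 5′ UTR: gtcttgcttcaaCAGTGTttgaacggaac
Slc40a1 5′ UTR: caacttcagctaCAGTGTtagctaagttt
Tfrc 3′ UTR, match 1: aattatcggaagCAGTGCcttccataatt
Tfrc 3′ UTR, match 2: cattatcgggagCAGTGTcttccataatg
Tfrc 3′ UTR, match 3: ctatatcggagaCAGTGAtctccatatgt
Tfrc 3′ UTR, match 4: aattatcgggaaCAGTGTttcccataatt
Slc11a2 3′ UTR: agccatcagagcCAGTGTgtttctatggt

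Those of Fth1 (chr19:9982732-9982760, plus strand), Ftl1 (chr7:45459779-45459807, minus strand) and Slc40a1 (chr1:45925465-45925493, minus strand) lie in the first exon and end 109, 147 and 201 bases before the start codon. The Tfrc matches (chr16:32631219-32631247, chr16:32631598-32631626, chr16:32631663-32631691 and chr16:32631710-32631738, plus strand) all lie in the last of 19 exons. The last 3 of them are only 36 and 18 bases apart, and the first stands 350 bases before the second. All of these had 5 of 5 stem pairs. The Slc11a2 match (chr15:100395153-100395181, minus strand) had 4 of 5 pairs and lies 31 bases past the stop codon of an isoform, which counts per gene do not separate from isoforms without it. Of all genes with an annotated UTR, 0.151% had a match with 5 pairs in a 5′ UTR (31 of 20597) and 0.615% in a 3′ UTR (129 of 20979). UTRs of the other 5 genes hold no such letters with at least 4 pairs.

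**Figure D1:**
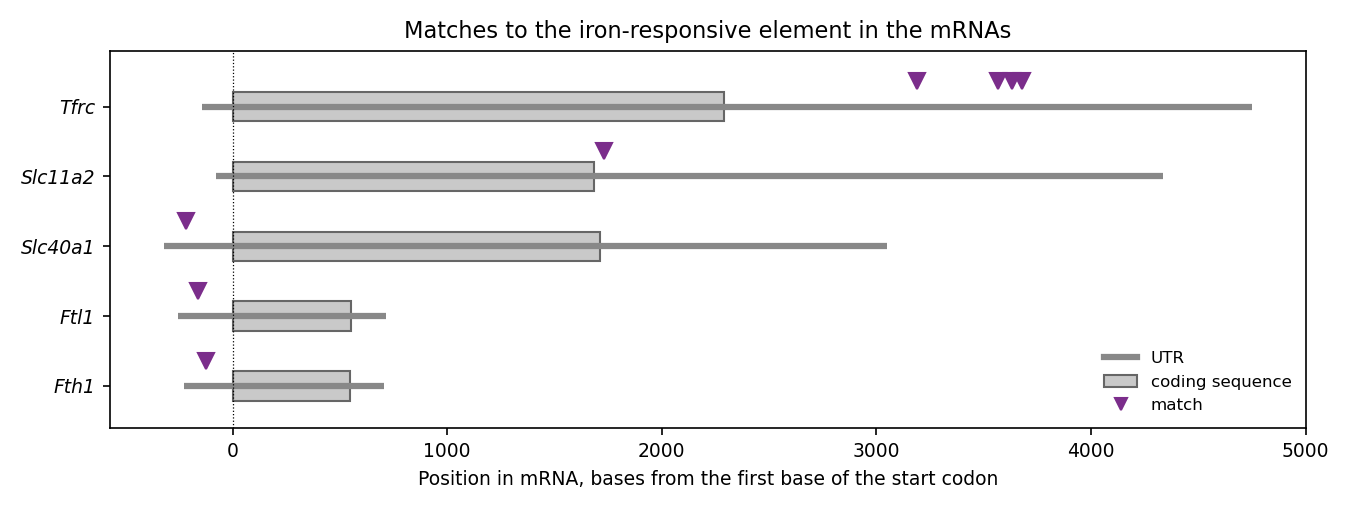
Matches to the iron-responsive element along the mRNAs of 5 genes, with position in bases from the start codon on the horizontal axis, boxes for coding sequence, lines for UTRs and triangles for matches. Tfrc carries 4 matches in its 3′ UTR, whereas Fth1, Ftl1 and Slc40a1 carry 1 each before the start codon.

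Of the 10 genes, 3 rose in labelled cKO (Tfrc, Hfe2 and Ireb2) and 1 fell (Ftl1) at an adjusted p under 0.05, and 6 did not pass. Among all 14180 genes tested, 24.4% passed, 12.6% as higher and 11.8% as lower in labelled cKO, which is the background for these 4 of 10. Only Tfrc among them also exceeded a fold of 2, which 6.05% of all genes did (2.13% as higher and 3.92% as lower in labelled cKO). The median log2 fold change of the 10 genes was 0.24, beside -0.02 for all genes tested. In 7 of the 10 the groups did not overlap (6 higher and 1 lower in labelled cKO), against 43.9% of all genes (22.0% higher and 21.9% lower).

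Among the uptake genes, the transferrin receptor was the one that changed. Tfrc (chromosome 16, 32608920 to 32632794, plus strand) had 89.8, 106 and 91.9 CPM in labelled Ctrl mice 1, 2 and 3 and 216, 188 and 216 CPM in labelled cKO mice 1, 2 and 3. All labelled cKO libraries thus lay above all labelled Ctrl libraries, and within a group the highest exceeded the lowest by only 1.18-fold and 1.15-fold. Mean levels were 95.9 ± 8.69 CPM (SD, n = 3) and 206 ± 16.4 CPM (SD, n = 3). The log2 fold change was 1.11 (SE 0.10, adjusted p = 0.00156, edgeR's quasi-likelihood test), 2.15-fold, and it ranked 80 among all genes tested by p. Leaving out each library in turn gave 1.06 to 1.19, with an adjusted p of at most 0.0106.

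The other uptake genes did not pass. Slc11a2 (chromosome 15, 100387898 to 100425072, minus strand) had 33.3, 39.4 and 38.3 CPM in labelled Ctrl and 46.3, 38.8 and 39.9 CPM in labelled cKO, and the groups overlapped (log2 fold change 0.17, SE 0.10, adjusted p = 0.256, edgeR's quasi-likelihood test). On GENCODE M21, 402 of its exon bases are shared with Gm5475 on the opposite strand. Steap3 (chromosome 1, 120190757 to 120272705, minus strand), the endosomal ferrireductase, had 30.3, 32.0 and 35.9 CPM in labelled Ctrl and 32.8, 39.6 and 34.3 CPM in labelled cKO, again with overlap (log2 fold change 0.12, SE 0.10, adjusted p = 0.421). Scaling by total counts in place of TMM factors turned both values negative, to -0.09 and -0.13.

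**Figure D2:**
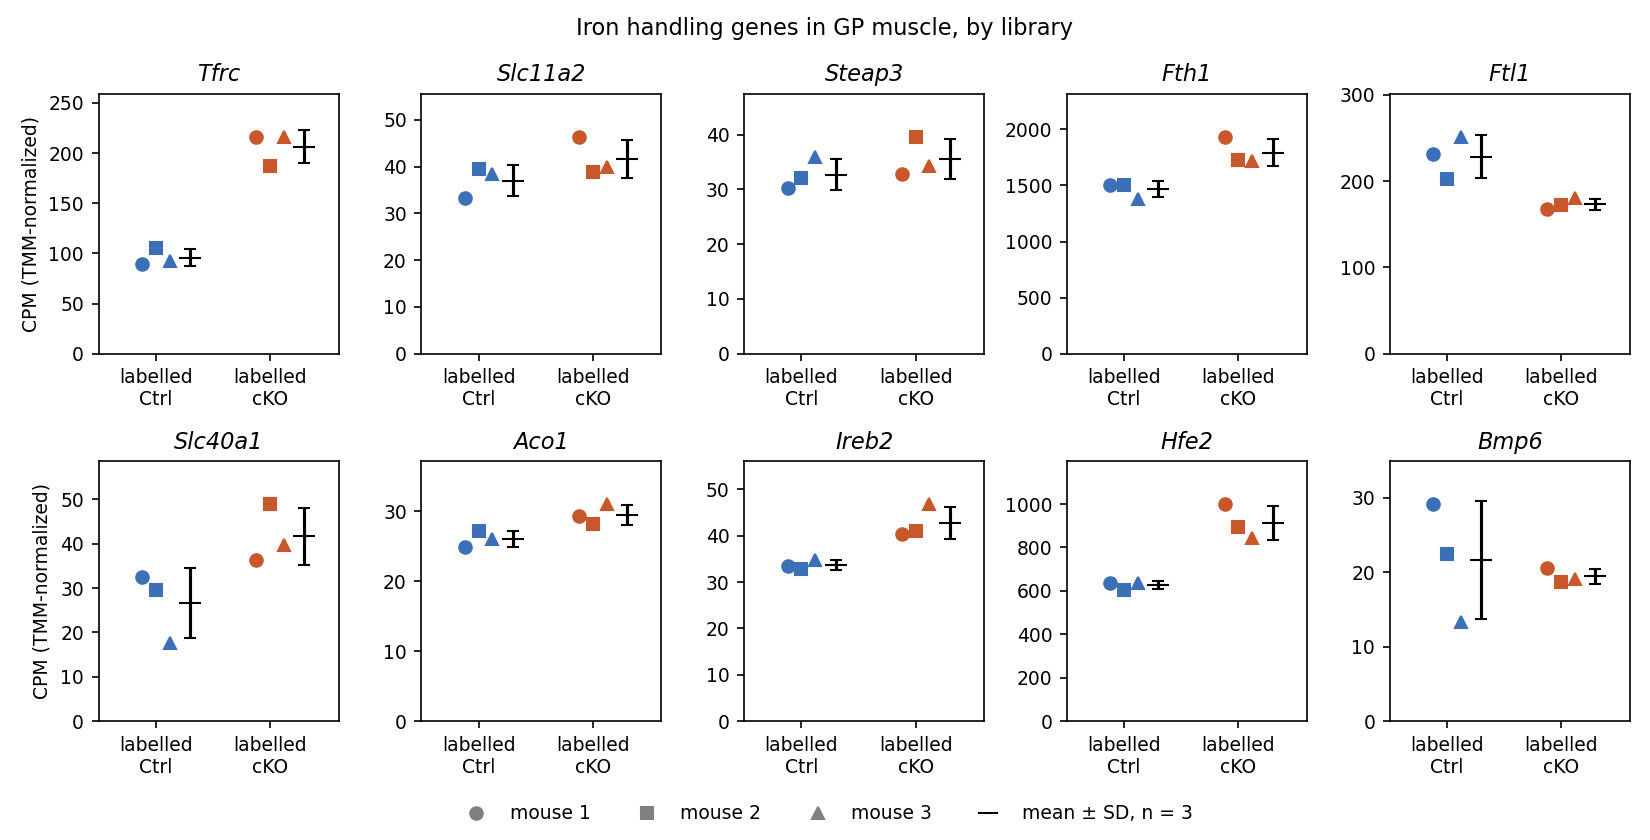
TMM-normalized CPM of each gene by library, on axes from 0, with a symbol per mouse and black bars for mean ± SD (n = 3). Tfrc, Hfe2 and Ireb2 lie higher in every labelled cKO library and Ftl1 lower, while Slc11a2, Steap3 and Bmp6 overlap between the groups.

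Of the ferritin chains, Ftl1 fell and Fth1 did not pass. Ftl1 (chromosome 7, 45457944 to 45459884, minus strand) had 231, 202 and 251 CPM in labelled Ctrl and 167, 172 and 180.2 CPM in labelled cKO. Every labelled cKO library was below every labelled Ctrl library. The log2 fold change was -0.40 (SE 0.10, adjusted p = 0.0278, edgeR's quasi-likelihood test). The call was lost on leaving out Ctrl 1, Ctrl 3, cKO 1 or cKO 3, with an adjusted p of at most 0.0884 and log2 fold changes of -0.44 to -0.32 in those 4 fits.

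Fth1 (chromosome 19, 9980598 to 9985098, plus strand), whose chain oxidises iron for storage, had 1505, 1506 and 1382 CPM in labelled Ctrl and 1933, 1726 and 1722 CPM in labelled cKO. The groups did not overlap and labelled cKO was the higher, yet the gene did not pass (log2 fold change 0.29, SE 0.10, adjusted p = 0.0801, edgeR's quasi-likelihood test). DESeq2's Wald test passed it, with an adjusted p of 0.012. Under total counts the log2 fold change was 0.03.

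Within a library the ratio of Fth1 to Ftl1 does not depend on how libraries are scaled. In counts per kilobase of transcript it was 6.78, 7.77 and 5.73 in labelled Ctrl and 12.0, 10.4 and 9.96 in labelled cKO. Each labelled cKO library had more heavy chain mRNA per light chain mRNA than any labelled Ctrl library, by 1.61-fold between the geometric means (log2 difference 0.68, exact permutation test, two-sided, p = 0.1, and 3 against 3 cannot give less). That p stayed at 0.1 after adjustment over the 3 ratios compared. Both ferritin genes have near-identical processed copies in the mouse genome, and of the rows named like them only Fth1, Ftl1 and Fthl17 (0 counts in each library) were in the tables. The levels are therefore uncertain where reads could be shared with a copy, and 464 exon bases of Ftl1 overlap Gm22133 and Gm10252.

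The ratio of Tfrc to Fth1, uptake against storage, was 0.0113, 0.0133 and 0.0126 in labelled Ctrl and 0.0212, 0.0207 and 0.0238 in labelled cKO. The groups did not overlap, and labelled cKO was 1.76-fold higher (log2 difference 0.82, exact permutation test, two-sided, p = 0.1, adjusted p = 0.1). The Tfrc difference was thus larger than that of Fth1 in the same libraries, whichever way they are scaled.

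Ferroportin was variable. Slc40a1 (chromosome 1, 45908068 to 45926523, minus strand) had 32.5, 29.6 and 17.7 CPM in labelled Ctrl and 36.4, 48.9 and 39.7 CPM in labelled cKO. All labelled cKO libraries were above all labelled Ctrl libraries, but Ctrl 3 stood well below its group. The log2 fold change of 0.65 (SE 0.23) was next to that of Tfrc in size and did not pass (adjusted p = 0.0769, edgeR's quasi-likelihood test), whereas DESeq2's Wald test gave an adjusted p of 0.0212. Leaving out single libraries moved it between 0.43 and 0.82.

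Of the iron sensors, Ireb2 passed and Aco1 did not. Ireb2 (chromosome 9, 54863789 to 54912530, plus strand) had 33.6, 32.8 and 34.8 CPM in labelled Ctrl and 40.5, 41.0 and 46.8 CPM in labelled cKO. The groups did not overlap. Its log2 fold change was 0.34 (SE 0.08, adjusted p = 0.0238, edgeR's quasi-likelihood test). Without Ctrl 1, Ctrl 2 or cKO 3 it no longer passed (adjusted p of at most 0.0899), and under total counts the log2 fold change was 0.09 (adjusted p = 0.477).

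Aco1 (chromosome 4, 40143081 to 40198338, plus strand), a cytosolic aconitase that becomes IRP1 when it lacks its iron-sulphur cluster, had 24.8, 27.2 and 26.0 CPM in labelled Ctrl and 29.3, 28.1 and 30.9 CPM in labelled cKO. The groups did not overlap, and the gene did not pass (log2 fold change 0.18, SE 0.08, adjusted p = 0.128, edgeR's quasi-likelihood test). Its log2 fold change turned to -0.08 under total counts. The ratio of Ireb2 to Aco1 was 0.898, 0.802 and 0.888 in labelled Ctrl and 0.917, 0.968 and 1.00 in labelled cKO. It was 1.12-fold higher in labelled cKO without overlap (log2 difference 0.16, exact permutation test, two-sided, p = 0.1, adjusted p = 0.1), so the mRNAs of the IRPs stood nearer to parity there.

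**Figure D3:**
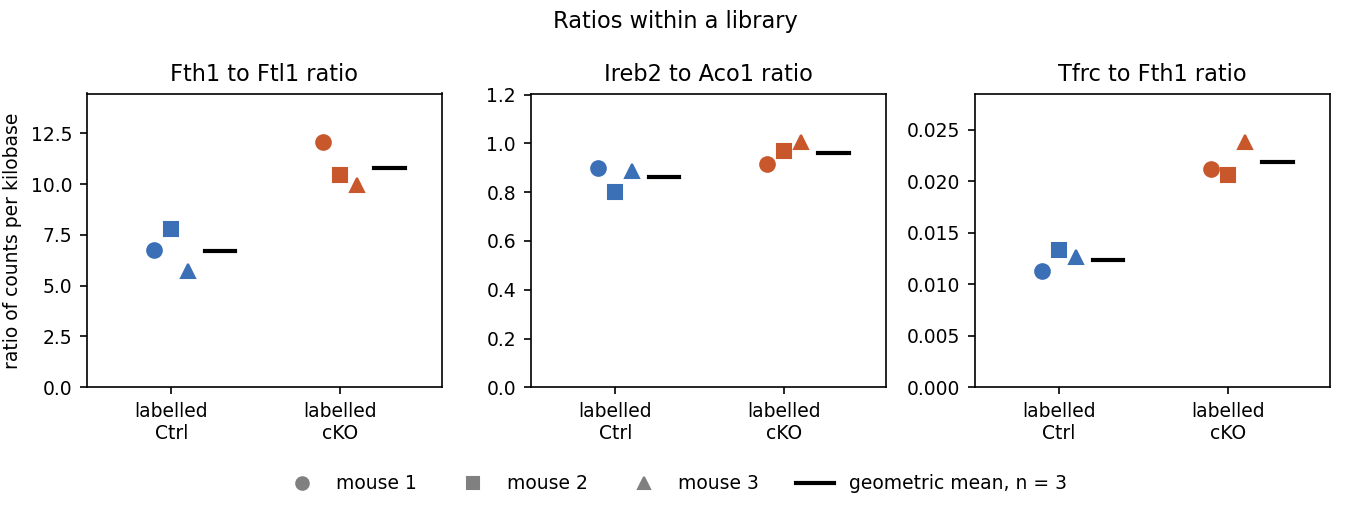
Ratios of counts per kilobase within each library, on axes from 0, with a symbol per mouse and bars for geometric means (n = 3). Fth1 to Ftl1, Ireb2 to Aco1 and Tfrc to Fth1 are each higher in all labelled cKO libraries than in any labelled Ctrl library.

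Of the genes upstream of hepcidin, Hfe2 was abundant and rose, and Bmp6 was low and did not pass. Hfe2 (chromosome 3, 96525172 to 96529210, plus strand) had 635, 605 and 638 CPM in labelled Ctrl and 998, 893 and 846 CPM in labelled cKO. The groups were well apart, at 626 ± 18.2 CPM (SD, n = 3) and 912 ± 78.2 CPM (SD, n = 3). The log2 fold change was 0.54 (SE 0.10, adjusted p = 0.0101, edgeR's quasi-likelihood test), 1.46-fold, and the gene passed without any single library, with an adjusted p of at most 0.0473. Under total counts it was 0.29 and just missed the threshold (adjusted p = 0.0506).

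Bmp6 (chromosome 13, 38345107 to 38500302, plus strand, 224 exon bases shared with Txndc5 on the other strand) had 29.1, 22.4 and 13.4 CPM in labelled Ctrl and 20.6, 18.6 and 19.1 CPM in labelled cKO. Labelled Ctrl spanned 2.18-fold from lowest to highest and enclosed the labelled cKO values (log2 fold change -0.15, SE 0.25, adjusted p = 0.684, edgeR's quasi-likelihood test). Without Ctrl 1 the log2 fold change was 0.12.

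**Figure D4:**
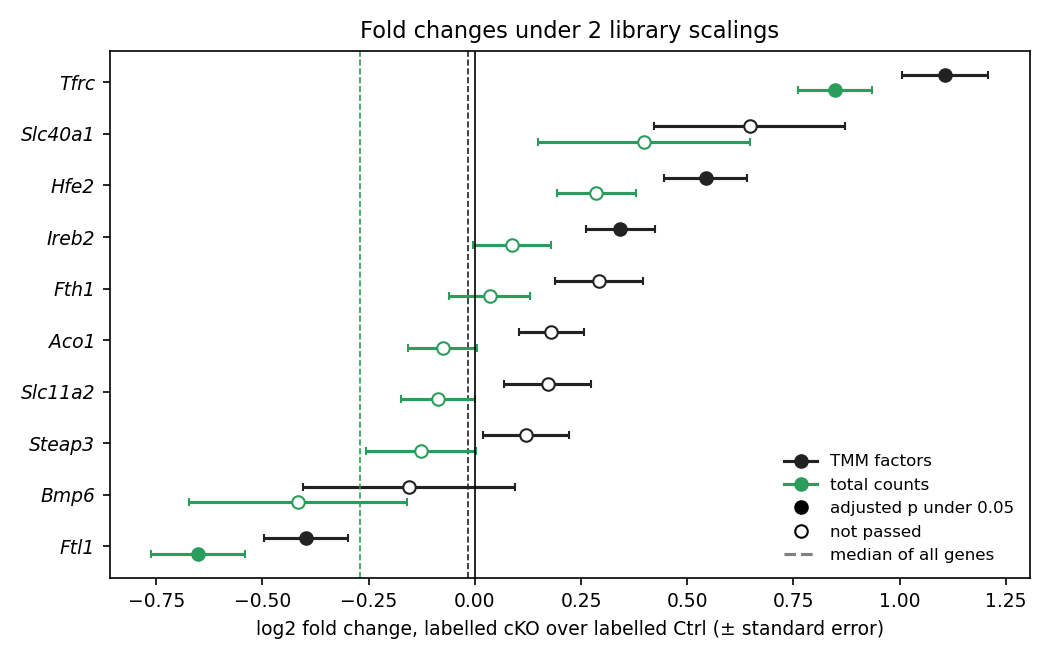
Log2 fold change of labelled cKO over labelled Ctrl for each gene, with bars for the SE, under TMM factors and under total counts. Filled points passed an adjusted p under 0.05 and dashed lines mark the median of all genes. Tfrc passed under both scalings, at 1.11 and 0.85.

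The scaling sets how much of this is seen. With total counts the median over all genes of the log2 fold change moved from -0.02 to -0.27. Relative to the median of all genes, Tfrc was at 1.12 under both scalings, Hfe2 at 0.56 under both, Ireb2 at 0.36 under both and Ftl1 at -0.38 under both. The order of the genes was thus the same, and all of them moved down by a like amount.

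Levels between genes were compared as CPM per kilobase of the principal transcript. Fth1 was highest, at 1576 ± 76.6 in labelled Ctrl and 1931 ± 130.1 in labelled cKO (SD, n = 3), and was followed by Hfe2 (309 ± 8.97 and 450 ± 38.5) and Ftl1 (236 ± 25.5 and 179 ± 6.80). Tfrc was the fourth, at 19.6 ± 1.78 and 42.2 ± 3.35 CPM per kilobase, and these leading genes did not overlap with their neighbours in the order in either group. Slc11a2 was the fifth and Slc40a1 the sixth, apart from each other in labelled Ctrl and overlapping in labelled cKO. From Slc40a1 down through Aco1, Steap3, Bmp6 and Ireb2, neighbours in labelled Ctrl overlapped (means of 5.85 to 7.89 CPM per kilobase). Ireb2 was the tenth in labelled Ctrl and the eighth in labelled cKO, where Bmp6 was the tenth and below every Steap3 library. Hemojuvelin mRNA was therefore more abundant per length than either the receptor or the exporter of iron in this muscle.

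Marker mRNAs of fibre types and other cells also differed between the groups. Of 8 slow-fibre markers 3 fell in labelled cKO, with a summed level of 8481 to 14598 CPM in labelled Ctrl and 446 to 3873 CPM in labelled cKO, and all 6 markers of fast IIb fibres rose (36693 to 69068 and 106746 to 144181 CPM). Of 8 macrophage markers 6 fell (177 to 191 and 87.6 to 114 CPM summed). These counts moved with the library left out, and the summed levels of the 3 lists did not overlap between the groups. Calls over all genes dropped too without Ctrl 1, Ctrl 2, cKO 1 or cKO 3. They were 5.33% to 6.2% as higher and 5.46% to 6.57% as lower there. Leaving out 1 library left 0 to 7 slow-fibre markers lower (the fewest without Ctrl 1, Ctrl 2 or cKO 1), 0 to 6 fast IIb markers higher (the fewest without cKO 3) and 1 to 8 macrophage markers lower (the fewest without Ctrl 2 or cKO 3). The share that passed, beside 24.4% of all genes, was 16.7% (1 of 6, lower) for endothelial markers (389.9 to 400.4 and 346 to 383 CPM), and 33.3% (2 of 6, both lower) for fibro-adipogenic progenitors (1939 to 2156 and 1673 to 1882 CPM), where Dcn (0.20) and Smoc2 (0.29) had positive log2 fold changes that did not pass. For satellite cells and myoblasts it was 25% (1 of 4, Myog, lower), with sums of 40.0 to 52.3 and 34.1 to 64.8 CPM. Myod1 (0.87) and Myf5 (0.58) had positive log2 fold changes that did not pass in edgeR, and Pax7 was at -0.10. DESeq2's Wald test passed 1 of the 4 as higher and 1 as lower. The part of these lists in the iron genes was not tested.

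Red cell precursors and dividing cells take up much transferrin iron, so their markers were read too. Of the red cell markers, 4 globin genes were listed at 0 in every library, which for near-identical copies may not reflect their expression. The summed level of the 6 markers listed was 0.16 to 0.68 CPM, with at most 20 counts of Slc4a1. Alas2, the erythroid enzyme that starts haem synthesis, was present in every library, at 3.97 to 8.76 CPM in labelled Ctrl and 5.56 to 7.18 CPM in labelled cKO, and the groups overlapped (log2 fold change -0.16, adjusted p = 0.72, edgeR's quasi-likelihood test). Markers of dividing cells summed to 1.30 to 3.83 CPM in labelled Ctrl and 0.93 to 2.89 CPM in labelled cKO, and edgeR passed 0 of the 3 that could be tested (1 at an unadjusted p under 0.05, 0 by DESeq2). Adipocyte markers summed to 14.0 to 45.9 and 16.2 to 49.7 CPM, and 0 of 4 passed in edgeR (0 at an unadjusted p under 0.05, 0 by DESeq2).

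The rest of the pathway was read from 6 lists of 97 genes, of which 95 were in the tables and 87 were tested. In all, 13 rose and 8 fell in labelled cKO, 24.1% of those tested beside 24.4% of all genes, and the median log2 fold change was 0.04. Leaving out single libraries moved these counts. Without Ctrl 3, 11 rose and 11 fell, and without cKO 2, 10 rose and 10 fell. The counts dropped in the other 4 fits: without Ctrl 1, cKO 1 or cKO 3 the number that rose was 3, and without Ctrl 2 it was 4. The number that fell was 3 without Ctrl 1 or Ctrl 2 and 4 without cKO 1 or cKO 3. Calls over all genes dropped in the same 4 fits, to 5.33% to 6.2% as higher and 5.46% to 6.57% as lower, beside 3.45% to 4.6% of these lists in each direction. Under total counts edgeR called 0 as higher (4 at an unadjusted p under 0.05). It called 24 as lower, 27.6% of them, beside 28.7% of all genes as lower and 4.75% as higher under that scaling. DESeq2 with its own size factors called 15 of the 87 as higher and 11 as lower. Among the 14180 genes that edgeR tested, DESeq2 called 2067 as higher and 1777 as lower. Of the 18 genes of these lists that the naming rule selects, Slc48a1, Lrp1, Hephl1, Bmpr1a, Isca1 and Fam96b passed without any single library. Cd163 passed in 3 of 6 such fits (without Ctrl 3, cKO 1 or cKO 2) and the other 11 in 2 of 6 (without Ctrl 3 or cKO 2, or for Slc25a28 without Ctrl 2 or cKO 2).

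Among 15 other genes of uptake and transport, Slc48a1, which carries haem out of lysosomes, rose from 47.3 ± 0.14 to 62.1 ± 0.70 CPM (SD, n = 3), with a log2 fold change of 0.39 (SE 0.06, adjusted p = 0.00648, edgeR's quasi-likelihood test). It did not pass under total counts (0.14). Lrp1, a receptor that takes up haem bound to hemopexin among many other ligands, fell (-0.65), as did Slc39a14, a zinc transporter that also admits iron not bound to transferrin (-0.43), and Cd163, the macrophage receptor for haemoglobin bound to haptoglobin (-0.78). Cd163 is also on the macrophage list above. The other 11 did not pass, so 26.7% of this list passed, beside 24.4% of all genes.

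Of 6 other genes of storage, release and export, 16.7% passed, beside 24.4% of all genes. The only one was Hephl1, a copper ferroxidase like hephaestin. It fell by 2.52 on the log2 scale, from 1.68 ± 0.35 to 0.29 ± 0.18 CPM (SD, n = 3). It was the 1 gene of these lists that passed and also exceeded a fold of 2. Its counts were low throughout.

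Among 18 other regulators 5 passed (27.8%, beside 24.4% of all genes). All 5 were higher in labelled cKO, beside 12.6% of all genes as higher and 11.8% as lower. Bmpr1a (0.55), Smad4 (0.46) and Bmpr2 (0.36) act in BMP signalling, the pathway to which hemojuvelin is a co-receptor, and Fbxl5 (0.33) marks IRP2 for degradation when iron is ample. Under total counts these 4 log2 fold changes were 0.30, 0.20, 0.11 and 0.07 and none passed. The other gene that passed as higher was Acvr2a, an activin and BMP receptor (0.51, adjusted p = 0.0442, edgeR's quasi-likelihood test), which passed in 1 of 6 fits that left out a library. The other 13 genes did not pass with TMM factors. Among them, of the BMP pathway, Smad1 (-0.08), Smad5 (-0.02), Smad9 (-0.22) and Id1 (-0.31) were negative. Smad6 (0.18), Smad7 (0.02), Bmp2 (0.16) and Acvr1 (0.10) were positive.

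Of 25 genes for mitochondrial iron and iron-sulphur clusters, 6 rose and 2 fell. That is 32%, beside 24.4% of all genes (12.6% as higher and 11.8% as lower). Isca1, an assembly factor for clusters, rose from 231 ± 17.6 to 328 ± 18.0 CPM (SD, n = 3), with a log2 fold change of 0.51. Slc25a28, the iron importer mitoferrin-2, had a value of 0.55, and Cisd1, an outer membrane cluster protein, 0.39. Cisd3 (0.25, adjusted p = 0.0486) and Iscu (0.31, adjusted p = 0.0494) were just past the threshold of edgeR's quasi-likelihood test and passed in 0 of 6 fits that left out a library, with an adjusted p of at least 0.0759. Fdxr, a reductase that feeds electrons to cluster assembly (-0.69), and Iba57, a late assembly factor (-0.60), fell. Isca1, Slc25a28, Cisd1, Cisd3 and Iscu did not pass under total counts, where Cisd3 turned to -0.0062.

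In the cytosol, 1 of 9 genes for iron-sulphur clusters passed (11.1%, beside 24.4% of all genes). Fam96b, which delivers clusters to their target proteins, fell from 40.6 ± 3.31 to 24.9 ± 1.29 CPM (log2 fold change -0.70, adjusted p = 0.00354, edgeR's quasi-likelihood test). Of 14 genes for haem and myoglobin, 14.3% passed, beside 24.4% of all genes. Fech, which inserts iron into haem, rose (0.30) and Ppox, which acts a step before it, fell (-0.34). The Fech value was 0.05 under total counts and did not pass.

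**Figure D5:**
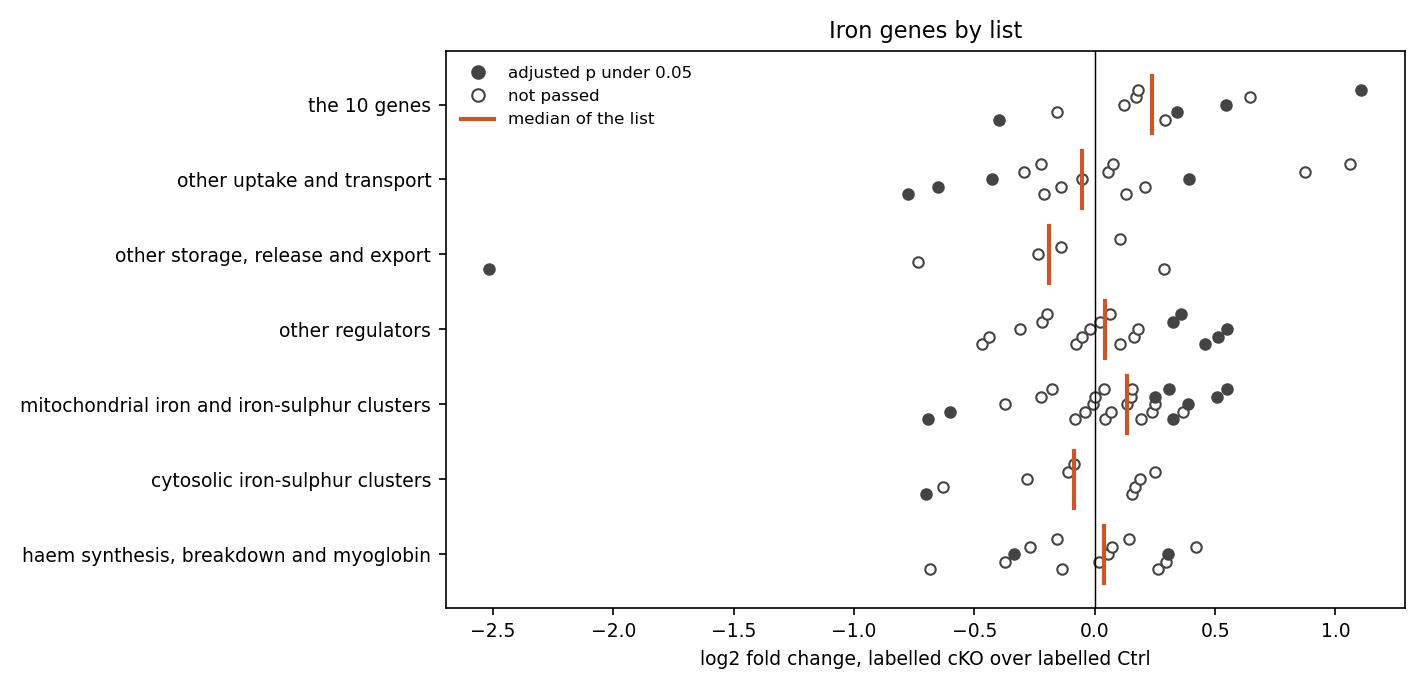
Log2 fold change of labelled cKO over labelled Ctrl for the 10 genes and the tested genes of the other lists, a point per gene, filled where the adjusted p was under 0.05, with the median of each list as a bar. Tfrc, at 1.11, is the rightmost point, and Hephl1, at -2.52, the leftmost.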

How the data were processed

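GP muscle was profiled in 6 mRNA libraries, made with the KAPA mRNA HyperPrep kit and sequenced paired-end. The authors deposited counts, whole and without normalization, 1 table per library. The submitters' processing notes name FastQC 0.11.8, Trimmomatic 0.39, HISAT2 2.1.0, featureCounts 1.6.2 and mm10. The annotation and the strand setting are not given in the sources used here, so reads of overlapping genes may not be separated. No column of per-sample values was left unmapped (0).

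Groups follow the sample labels. The test was edgeR 4.0.16 in R 4.3.3 (TMM, filterByExpr, glmQLFit and glmQLFTest, Benjamini-Hochberg adjustment over all 14180 genes tested, threshold 0.05), and its steps were tested on simulated data. As alternatives, DESeq2 1.42.0 replaced edgeR or gave its size factors, total counts replaced TMM, the filter was dropped or set to 10 counts per library, mouse number entered as a block, and single libraries were left out. Standard errors come from the F statistic. Ratios were compared by exact permutation tests over libraries.

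The 10 genes and the lists were chosen with earlier results of these data known. Outside the 10, the genes named with values are taken from those of the iron lists that passed. They are those past a fold of 2 and up to 4 more per list and direction with the smallest p. 1 gene that this rule selects is not reported here. Acvr2a, Cisd3 and Iscu passed outside this rule and were named after their values were seen. So were Alas2, Dcn, Smoc2, Myod1, Myf5, Pax7, Smad1, Smad5, Smad6, Smad7, Smad9, Bmp2, Acvr1 and Id1, which did not pass in edgeR. Flvcr1, Flvcr2 and Epb42 are on the lists and were not analysed here. Positions, lengths and UTRs come from GENCODE M21.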

Additional observations from a re-analysis of the deposited data

How the results depend on the processing

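Tfrc passed in edgeR or DESeq2 under every alternative run. With total counts, 1 of the 10 genes rose in place of 3, 0 exceeded a fold of 2 in edgeR (0 at an unadjusted p under 0.05 either, and 1 by DESeq2 with its own size factors, as by edgeR with TMM factors), Slc11a2 (-0.087), Steap3 (-0.13) and Aco1 (-0.076) reversed, and 0 other iron genes rose and 24 fell (27.6%, beside 28.7% of all genes). Relative to the median of all genes, an alternative added after seeing the data, these members kept their sign. DESeq2's Wald test passed 5 of the 10 genes as higher, beside 2067 of the 14180 genes that edgeR tested. Leaving out 1 library gave 2 to 3 higher and 0 to 1 lower of the 10, 3 to 11 other iron genes higher and 3 to 11 lower, and moved Bmp6 from -0.40 without Ctrl 3 to 0.12, reversed, without Ctrl 1. Mice share numbers between the groups, but same-numbered libraries did not deviate together (r = 0.084, -0.21 and -0.0020, and 1 of 6 libraries was nearest to its own number), so the numbers were not taken as pairs. With the replicate block, 2 of the 10 genes rose in edgeR (Hfe2 and Tfrc, with Ireb2 at an adjusted p of 0.0547). Of the 10, 0 fell (1 at an unadjusted p under 0.05, Ftl1 at an adjusted p of 0.062). Of the other iron genes 5 rose and 7 fell (5.75% and 8.05%). All genes passed at 6.54% as higher and 6.85% as lower with the block. Genes passing in all went from 3454 to 1899 with the block and to between 1560 and 3585 on leaving out a library. Hephl1 had no value with at least 10 counts in every library, since it was not tested there. The ratios were higher in labelled cKO in every alternative. Exact tests of 3 mice a group cannot go below 0.1, nor below 0.25 with the mice paired by number. Groups of 3 were not tested for outlying libraries.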

Other observations

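Genes with a match to the iron-responsive element changed in both directions. Of the genes with a match of 5 stem pairs in a 5′ UTR, 23 were tested, of which 1 rose and 3 fell in labelled cKO (17.4% passed, median log2 fold change -0.03). Of those with one in a 3′ UTR, 105 were tested, of which 14 rose and 16 fell (28.6% passed, median 0.04), beside 24.4% of all genes tested. These counts include 3 of the 10 genes in the 5′ UTR set (Fth1, Ftl1 and Slc40a1) and 1 in the 3′ UTR set (Tfrc). Hamp and Hamp2, which encode hepcidin, had at most 2 counts in any library, Tfr2, the second transferrin receptor, at most 13, and Tmprss6, the protease that cuts hemojuvelin, at most 5, too few to test. Ftmt, mitochondrial ferritin, was listed at 0 in every library.

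By the root mean square difference of log2 CPM over the 6 libraries, each gene centred on its own mean, the genes most like Tfrc among 9760 were Kcnc1 (0.046), a voltage-gated potassium channel, Car11 (0.076), Ak6 (0.101), Eepd1 (0.101) and Celsr2 (0.103). Hfe2 was the nearest of the other iron handling genes, at 0.312 and rank 587. The libraries fall into 2 groups, so any gene that differs by a like amount comes out as like Tfrc.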
